A study of Mus musculus with 5 samples.

Results

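The erythroid program genes described here are 8 genes that mark or drive the making of red blood cells: Gata1, Klf1, Epor, Gfi1b, Zfpm1, Car1, Tfrc and Sox6. They were listed by name, and all 8 were measured, among 18193 genes with a probeset of their own on a whole-genome Affymetrix mouse array. Probesets are groups of short DNA probes that read one transcript, and 14 probesets tested here read these genes, 5 of the genes by a single probeset. Hematopoietic stem cells (HSCs) of mouse bone marrow were divided by CD11A, the integrin chain encoded by Itgal, into a CD11A- and a CD11A+ subfraction. All cells came from male C57/Bl6 mice, from KIT-enriched marrow of 1 to 2 mice per sort, and were sorted, then sorted again, into lysis reagent. The HSC gate was Lin-KIT+SCA-1+FLK2-CD150+CD34-, to which the study's supplement adds CD27+ and EPCR+, and the labels name no transgene or treatment.

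The 3 CD11A- arrays held 1011 cells of mice aged 6 weeks (replicate 1), 1300 cells at 8 to 12 weeks (replicate 2) and 1803 cells at 10 weeks (replicate 3). The 2 CD11A+ arrays held 1274 cells at 8 to 12 weeks (replicate 1) and 2293 cells at 10 weeks (replicate 2). By the labels, each subfraction was sorted once on a day called A here (CD11A- replicate 2, CD11A+ replicate 1) and once on a day B (CD11A- replicate 3, CD11A+ replicate 2). CD11A- replicate 1 came from a day C of its own. The RNA was amplified in a pair of cycles before hybridization. Precision is limited by how few arrays there are.

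Erythroid commitment is driven by GATA1, a zinc finger transcription factor that binds GATA sequences in DNA with its cofactor FOG1, the product of Zfpm1. GATA1 activates Klf1 and Epor, and KLF1 and the erythropoietin receptor then carry progenitors through terminal maturation, when hemoglobin is made and iron is taken up through the transferrin receptor. Stem cells are known for low levels of several lineage programs before commitment, and GATA1, GFI1B and FOG1 act in the megakaryocyte lineage as well.

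The 250 bases before the transcription start of these genes were read for the GATA letters. On their brightest probesets, Klf1, Epor, Gfi1b and Zfpm1 had their highest values on the arrays of day A, as given below. Gata1 was not among these genes, with 4.82 in CD11A- replicate 2 of day A and 5.01 in CD11A- replicate 3. Any part of GATA1 in the day A pattern was not tested. Promoter windows of 7 of the 8 genes were found in the RefSeq table of build GRCm38.p6, 13 windows in all since Sox6 and Tfrc have several starts. The letters searched on both strands were GATA after A or T and before A or G (AGATAA, for one), and matches may overlap. Among all 32851 such windows, 26.5% held at least 1 match. Among the erythroid program genes 4 of 13 windows did, 1 each of Klf1, Epor, Gfi1b and Sox6. The windows are chr8:84901732-84901981 on the plus strand for Klf1, and on the minus strand chr9:21963577-21963826 for Epor, chr2:28621983-28622232 for Gfi1b and chr7:115846141-115846390 for the Sox6 start with a match. Zfpm1 (chr8:122281891-122282140, plus strand), the day A gene without a match, is printed beside them. The windows of Gata1 and Tfrc held no match either. Capitals mark the GATA letters or their reverse complement, 5′ to 3′ on the strand of the gene:
Klf1: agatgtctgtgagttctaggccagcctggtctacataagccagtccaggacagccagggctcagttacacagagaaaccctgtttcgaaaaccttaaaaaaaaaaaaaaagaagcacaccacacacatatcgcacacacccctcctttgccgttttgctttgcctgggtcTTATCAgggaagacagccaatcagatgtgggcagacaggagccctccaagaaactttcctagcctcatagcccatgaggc
Epor: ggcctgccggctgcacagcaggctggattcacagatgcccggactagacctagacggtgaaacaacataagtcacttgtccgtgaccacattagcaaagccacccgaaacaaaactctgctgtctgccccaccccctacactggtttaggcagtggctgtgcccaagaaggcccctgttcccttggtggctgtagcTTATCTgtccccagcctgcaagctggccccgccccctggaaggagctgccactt
Gfi1b: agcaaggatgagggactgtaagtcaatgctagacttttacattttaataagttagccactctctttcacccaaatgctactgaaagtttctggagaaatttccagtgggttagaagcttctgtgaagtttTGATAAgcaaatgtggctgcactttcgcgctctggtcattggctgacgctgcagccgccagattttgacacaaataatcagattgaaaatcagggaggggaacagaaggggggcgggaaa
Zfpm1: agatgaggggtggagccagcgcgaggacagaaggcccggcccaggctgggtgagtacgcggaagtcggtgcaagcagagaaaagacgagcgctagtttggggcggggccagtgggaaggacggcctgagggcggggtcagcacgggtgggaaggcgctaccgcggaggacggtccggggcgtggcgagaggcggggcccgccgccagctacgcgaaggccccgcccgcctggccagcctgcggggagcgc
Sox6: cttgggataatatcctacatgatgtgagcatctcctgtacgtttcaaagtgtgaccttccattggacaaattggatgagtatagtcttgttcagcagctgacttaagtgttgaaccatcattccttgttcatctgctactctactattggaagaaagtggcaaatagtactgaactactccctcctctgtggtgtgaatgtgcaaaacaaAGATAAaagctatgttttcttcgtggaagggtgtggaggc
The match began at base -80 of Klf1, -54 of Epor, -120 of Gfi1b and -40 of the Sox6 start, counted back from the transcription start. A match describes the letters and not binding, and 5 of the 6 Sox6 windows held none.

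Sox6 was the one of the 8 genes whose levels in CD11A+ and CD11A- HSCs did not overlap on its brightest probeset, and the level was higher in CD11A+ HSCs. Of all genes, 18.9% had no overlap in either direction, and 8.56% had both CD11A+ arrays highest. Sox6 encodes an SRY-related factor that silences embryonic globin genes and helps red cells to mature. On its brightest probeset (1427677_a_at) it had log2 values of 8.02, 8.83 and 9.03 in CD11A- replicates 1, 2 and 3, and of 9.97 and 10.22 in CD11A+ replicates 1 and 2. The CD11A+ arrays were the highest and did not overlap with the CD11A- arrays. The mean of CD11A- HSCs was 8.63 ± 0.53 (SD, n = 3). CD11A+ HSCs had a mean of 10.10 ± 0.18 (SD, n = 2), higher by 1.47 log2 units or 2.77-fold. A two-sided exact permutation test gave p = 0.1, and 3 against 2 arrays cannot give less. The standard error was 0.33 with an unadjusted p of 0.00477 and an adjusted p of 1.00 in limma over all 45037 probesets, so Sox6 did not pass the threshold. At that threshold of 0.05, 0% of the probesets passed. At an unadjusted p under 0.05 there were 1917, 1.46% of all probesets in the higher and 2.8% in the lower direction. Of all genes, 1.48% had a higher value in CD11A+ HSCs at an unadjusted p under 0.05, and Sox6 was the only one of the 8 to do so. In either direction the share of all genes was 5.06%.

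On the brightest probeset, the within-day differences of Sox6 were 1.14 log2 units on day A and 1.19 on day B. Of all genes, 25.3% were higher in CD11A+ HSCs on both days, and 0.319% by at least 1 log2 unit on both. That cutoff lies just under the values of Sox6, so the smaller share does not measure how rare such a gene is. None of the other Sox6 probesets reached 1 log2 unit on either day. Their differences on days A and B were 0.33 and 0.91 (1447655_x_at), 0.43 and 0.90 (1434918_at), and -0.03 and 0.46 (1426018_a_at). In bulk RNA, a larger share of cells with Sox6 transcripts and more transcripts per cell cannot be told apart. All 4 Sox6 probesets had a higher mean in CD11A+ HSCs. The probeset 1447655_x_at had log2 values of 6.24, 8.42 and 6.99 in CD11A- replicates 1 to 3 and of 8.75 and 7.90 in CD11A+ replicates 1 and 2, with a difference of 1.11 (p = 0.3, exact permutation test). There CD11A- replicate 2 lay above CD11A+ replicate 2, so the groups overlapped. On 1434918_at the values were 6.13, 7.31 and 6.43 in CD11A- and 7.74 and 7.33 in CD11A+ HSCs, a difference of 0.91 (p = 0.2, exact permutation test), and the groups were apart by a narrow margin. On 1426018_a_at, the dimmest, they were 4.86, 6.51 and 5.31 in CD11A- and 6.48 and 5.77 in CD11A+ HSCs, a difference of 0.57 with -0.03 on day A and 0.46 on day B. On these 3 probesets the CD11A- array of day A was higher than those of the other days, whereas on the brightest probeset it lay between them. The replicates of CD11A- HSCs spread by 1.11 (SD) on 1447655_x_at, as much as the difference itself.

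**Figure D1:**
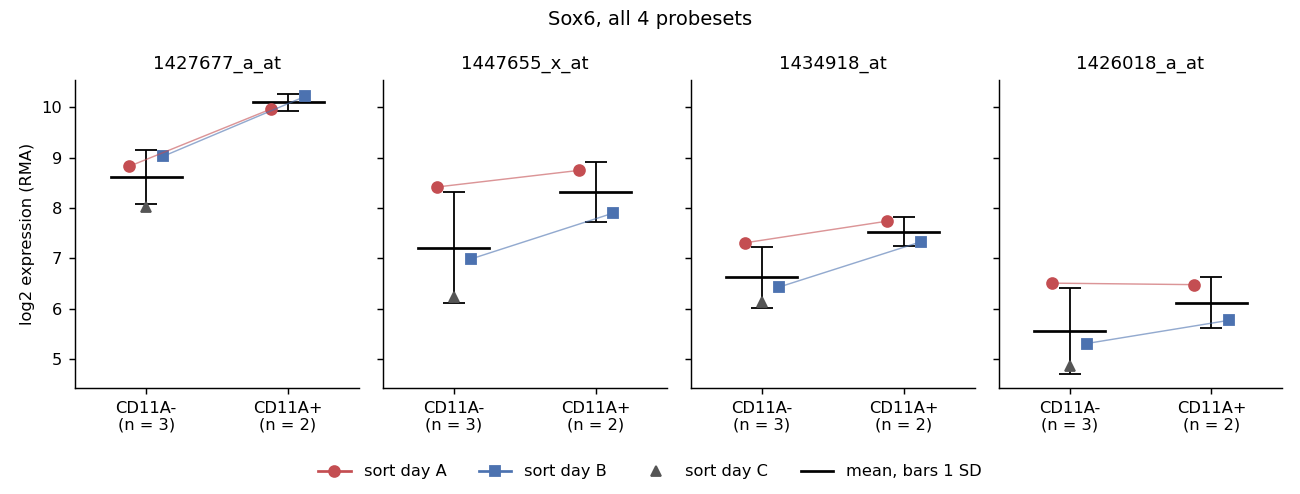
Log2 expression of Sox6 on each of its 4 probesets (panels, one shared vertical axis) in the 3 CD11A- and 2 CD11A+ arrays. Colours and symbols give the sort day, thin lines join the arrays of one day, and horizontal bars are group means with 1 SD. The differences of means are 1.47, 1.11, 0.91 and 0.57 from left to right, and on the last panel the day A line is level (-0.03).

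Gata1, the master regulator of the erythroid and megakaryocyte lineages, was high on a single array. Its log2 values (1449232_at) were 4.59, 4.82 and 5.01 in CD11A- replicates 1, 2 and 3, and 6.62 and 4.64 in CD11A+ replicates 1 and 2. CD11A+ replicate 2 lay within the range of the CD11A- arrays, so the groups overlapped. The difference of means was 0.82 log2 units (standard error 0.56, adjusted p = 1.00 from limma), with 1.80 on day A and -0.37 on day B. Without CD11A+ replicate 1 it was -0.17. The 4 other values were below 5.55, the lowest array median over all probesets, and therefore in the dim range of these arrays.

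Klf1, the factor that switches on adult beta-globin and many other late erythroid genes, had log2 values of 5.38, 5.82 and 4.79 in CD11A- replicates 1, 2 and 3. In CD11A+ replicates 1 and 2 it had 6.67 and 5.16. CD11A+ replicate 1 was the highest again, and CD11A+ replicate 2 lay between CD11A- replicates 1 and 3. The mean over the arrays (5.56) was dim, just below the median of all values (5.59). The difference of means was 0.59 log2 units (standard error 0.51, adjusted p = 1.00 from limma), 0.85 on day A and 0.37 on day B, and -0.17 without CD11A+ replicate 1.

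Gfi1b, a zinc finger repressor needed for erythroid and megakaryocyte cells, had nearly equal means in the subfractions. Its log2 values were 8.82, 9.28 and 8.63 in CD11A- replicates 1, 2 and 3, and 9.61 and 8.23 in CD11A+ replicates 1 and 2. The CD11A+ arrays were the highest and the lowest of the 5, on either side of all CD11A- arrays. The difference was 0.01 log2 units (standard error 0.44, adjusted p = 1.00 from limma), made of 0.33 on day A and -0.40 on day B. Leaving out CD11A+ replicate 1 gave -0.68, and leaving out CD11A+ replicate 2 gave 0.70.

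Zfpm1, which encodes the GATA1 cofactor FOG1, had log2 values of 9.06, 9.37 and 9.02 in CD11A- and of 9.11 and 8.65 in CD11A+ replicates on its brightest probeset. The difference of means was -0.27 log2 units (standard error 0.23), with -0.26 on day A and -0.37 on day B. The groups overlapped, since CD11A+ replicate 1 exceeded CD11A- replicates 1 and 3. Its other probeset differed by 0.11, with 0.54 and -0.53 on the days, so both probesets were lower only on day B.

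Epor, the receptor through which erythropoietin keeps erythroid progenitors alive, had log2 values of 6.58, 6.99 and 6.33 in CD11A- and of 6.95 and 6.21 in CD11A+ replicates. The arrays of day A were the highest in both subfractions. The difference of means was -0.05 log2 units (standard error 0.31), with -0.04 on day A and -0.12 on day B. The difference became -0.42 when CD11A+ replicate 1 was left out and 0.32 when CD11A+ replicate 2 was.

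Tfrc, the transferrin receptor that brings iron into dividing and hemoglobin-making cells, varied least over the arrays. On its brightest probeset it had log2 values of 8.77, 8.50 and 8.47 in CD11A- and of 8.70 and 8.76 in CD11A+ replicates. They spanned 0.30 log2 units, the smallest range of the 8 genes. The difference was 0.15 (standard error 0.19), with 0.20 on day A and 0.29 on day B, and both other tested probesets, which were dim, had means higher by 0.18 and 0.11. The array also carries 3 control probesets along the Tfrc transcript, which were left out of the fit. Their 3-prime minus 5-prime difference was 1.22 to 1.51 log2 units, and all of their values were below the array medians.

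Car1, the carbonic anhydrase of early erythroid cells, was dim on every array. Its log2 values were 4.64, 4.52 and 4.84 in CD11A- and 4.82 and 5.53 in CD11A+ replicates. CD11A+ replicate 2 was the highest, unlike for Gata1, Klf1 and Gfi1b. CD11A+ replicate 1 lay just below CD11A- replicate 3, so the groups overlapped. The difference was 0.51 log2 units (standard error 0.26, adjusted p = 1.00 from limma), with 0.30 on day A and 0.69 on day B. Leaving out CD11A+ replicate 1 gave 0.86, and leaving out CD11A+ replicate 2 gave 0.15.

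**Figure D2:**
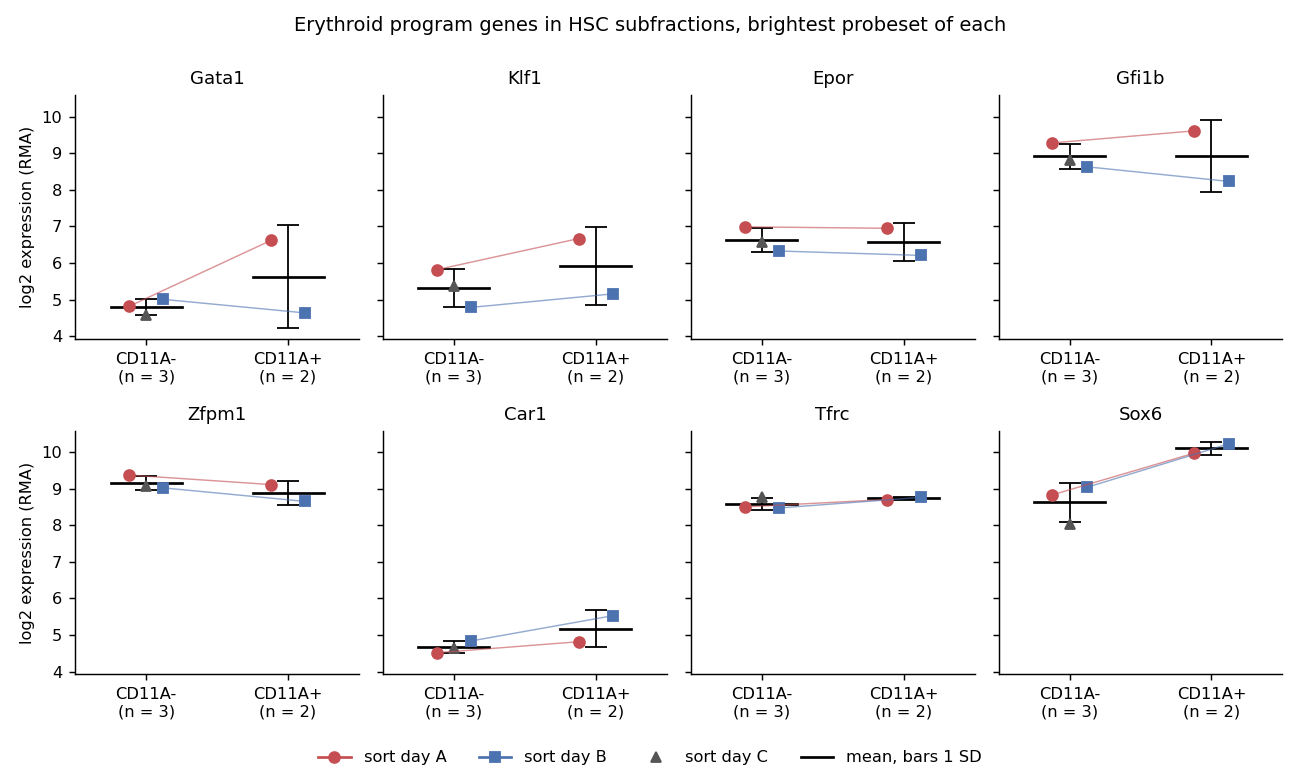
Log2 expression of the 8 erythroid program genes, each by its brightest probeset, in the 3 CD11A- and 2 CD11A+ arrays (one shared vertical axis, symbols by sort day, lines joining arrays of one day, horizontal bars for means with 1 SD). Sox6 is the one gene whose groups do not overlap, beside 18.9% of all genes, and Gata1 is high on CD11A+ replicate 1 only (6.62).

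Over the 8 genes, the mean of CD11A+ HSCs was higher for 6 and lower for 2, with a median difference of 0.33 log2 units, against -0.01 over all genes and 48.3% of genes with a higher mean. Day A had 6 higher genes and a median of 0.32, day B 4 higher genes and a median of 0.09. Klf1, Car1, Tfrc and Sox6 were higher on both days (25.3% of all genes), Epor and Zfpm1 were lower on both (28%), and Gata1 and Gfi1b changed sign between the days (44.2%). The CD11A+ arrays were the highest pair for 1 of the 8 genes, Sox6, beside 8.56% of all genes, and the lowest pair for 0, beside 10.4%. Without CD11A+ replicate 1 the median was -0.17 and 3 genes were higher. Of the higher genes, Gata1, Klf1 and Car1 were dim, and Gfi1b was higher by only 0.01. Without dim probesets the median was 0.01.

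**Figure D3:**
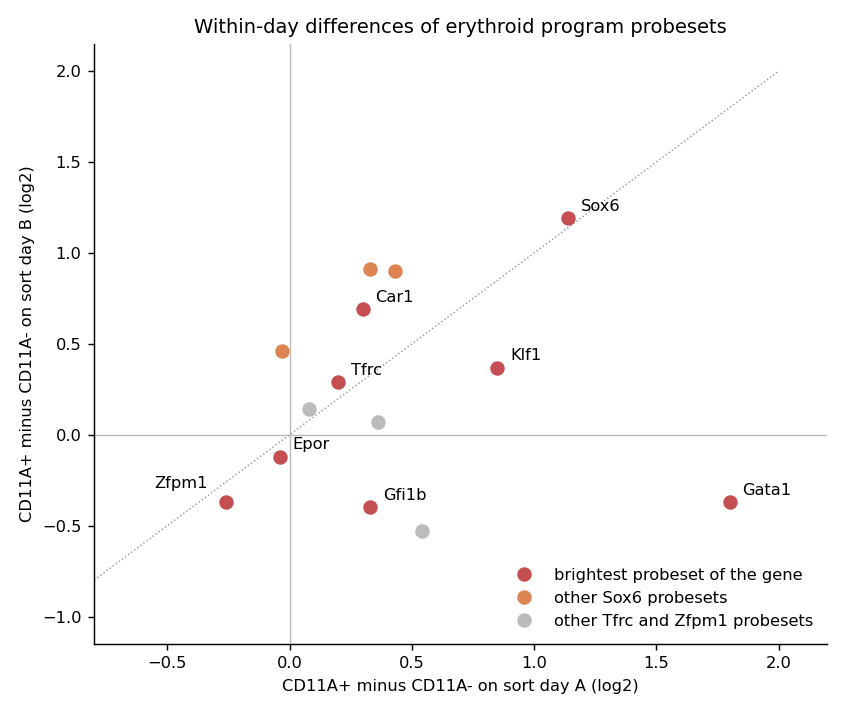
Difference of CD11A+ minus CD11A- HSCs in log2 units on sort day A (horizontal) and day B (vertical) for the 14 tested probesets of the erythroid program genes. Points on the dotted line differ equally on both days. Sox6 on its brightest probeset (1.14 and 1.19) lies by that line, and Gata1 (1.80 and -0.37) is far to its right.

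The sort day marked several of these genes in both subfractions. On their brightest probesets, both arrays of day A lay above the other 3 for Klf1, Epor, Gfi1b and Zfpm1. These were 4 of the 8, beside 18.1% of all genes. Zfpm1 did so narrowly, with 9.11 in CD11A+ replicate 1 against 9.06 in CD11A- replicate 1. On its other probeset, CD11A- replicate 2 of day A was the lowest array (5.86). Gata1, Klf1 and Gfi1b, 3 of the 8, had their highest value on CD11A+ replicate 1, beside 27.5% of all genes. Several transcripts of mature granulocytes were high on the same arrays: Camp, Ltf, Ngp, S100a8, S100a9 and Lcn2. Other granulocyte and macrophage genes were not, such as Elane (4.65 to 5.37 over the arrays), Itgam (3.7 to 4.28) and Lyz2 (11.05 to 11.48). Camp, a granule protein gene, had log2 values of 9.67 in CD11A- replicate 2 and 11.72 in CD11A+ replicate 1, and of 5.36 to 6.81 on the others. The mean over 14 granulocyte and macrophage genes was 7.84 and 8.85 on the day A arrays and 5.98 to 6.40 on the others, and 11 of the 14 had a higher mean in CD11A+ HSCs. Mpo, the myeloperoxidase gene, was at 8.72 in CD11A+ replicate 1 and at 4.45 to 4.59 elsewhere. The mean over 10 megakaryocyte genes was 7.89 in CD11A+ replicate 1 and 7.01 to 7.39 on the other arrays. The Gapdh 3-prime minus 5-prime control difference was lowest (1.91) on CD11A+ replicate 1. That of Actb was 1.94 there and 1.97 in CD11A- replicate 3, while that of the Tfrc controls was highest there (1.51). The part of these genes and controls in the erythroid values was not tested.

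Genes with the most similar profile were sought among 11083 genes at or above the median brightness, by the root mean square distance between profiles after subtracting each gene's mean over the 5 arrays. The nearest to Gata1 were Lsm2 (distance 0.097 log2 units) and H2ax (0.106). Those to Klf1 were Wdr76 (0.055) and Oip5 (0.058), and those to Gfi1b were Elp5 (0.040) and Top3b (0.043). Gtf2a1 (0.029) and Frat2 (0.068) were nearest to Car1. For Sox6 the nearest, Alyref (0.279) and Zfp709 (0.297), were farther than those of the other 4 genes. These distances over 5 arrays are a description and were not tested.

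The measured globin genes and Alas2 were dim over the arrays. Of 10 listed genes of the globins and their chaperone, 4 had no probeset of their own and were not read. All 6 measured globin genes had means over the 5 arrays below 5.59, the median of all values, beside 39.1% of all genes. Hba-a1, an adult alpha-globin gene, had log2 values of 3.78, 3.62 and 3.99 in CD11A- and of 3.42 and 3.73 in CD11A+ replicates. Alas2, the erythroid enzyme that starts heme synthesis, had 5.07, 5.18 and 5.15 in CD11A- and 4.66 and 5.09 in CD11A+ replicates. Hba-a1 and Alas2, defining markers of maturing red cells, were thus below the median of every array. Hbb-b2, a beta-globin gene, had 4.83, 4.58 and 4.87 in CD11A- and 5.23 and 5.32 in CD11A+ replicates, a difference of 0.51 (standard error 0.18, adjusted p = 1.00 from limma) without overlap of the groups. Hba-a2, another alpha-globin gene, had 4.92, 4.71 and 6.41 in CD11A- and 5.27 and 6.36 in CD11A+ replicates, so both arrays of day B were above their array medians. It differed by 0.47, with 0.56 on day A and -0.05 on day B, and globin genes are similar enough that probes may read more than one. The median difference of the globins was 0.16, with 4 higher and 2 lower.

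Of 13 measured genes of the red cell membrane and blood groups, 7 were higher and 6 lower in CD11A+ HSCs. The median was 0.06, and 7 of the 13 genes were dim. None had an unadjusted p under 0.05 (5.06% of all genes in either direction). Ank1, the ankyrin that ties spectrin to the membrane, differed by -0.68, with -0.40 on day A and -1.27 on day B, and 1 of its 3 other probesets had the opposite sign. Epb42, which encodes protein 4.2, was dim and differed by -0.53 with overlap of the groups, and by -0.0067 without CD11A+ replicate 1. Icam4, a red cell adhesion molecule of the blood group LW, differed by 0.48, with 8.10 in CD11A+ replicate 1 and 6.37 to 6.95 on the other arrays, the single-array pattern described for Gata1.

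Among 18 measured genes of heme synthesis and iron, 8 were higher and 10 lower in CD11A+ HSCs, with a median of -0.05. Slc40a1, which encodes ferroportin, the exporter of iron from cells, had log2 values of 7.04, 7.69 and 6.29 in CD11A- and of 8.25 and 8.67 in CD11A+ replicates. The groups did not overlap. The difference was 1.45 log2 units (standard error 0.42, adjusted p = 1.00 from limma), with 0.56 on day A and 2.38 on day B. Ferroportin is also a gene of macrophages. Alad, an early enzyme of heme synthesis, differed by 0.49, with 0.75 and -0.65 on the days and the opposite sign on its other probeset. Hmox1, which breaks heme down, differed by 0.49, with 0.76 on day A and 0.12 on day B. Its groups did not overlap, beside 18.9% of all genes.

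The partners of GATA1 and of TAL1, a bHLH factor bound with it on erythroid genes, had a median difference of -0.20, with 6 of 15 higher. Hemgn, a nuclear protein gene of erythroid and progenitor cells, had log2 values of 9.81, 10.12 and 9.48 in CD11A- and of 11.12 and 10.49 in CD11A+ replicates. Both CD11A+ arrays were above the CD11A- arrays, by 1.00 on day A and 1.01 on day B (difference of means 1.00, standard error 0.29, adjusted p = 1.00 from limma). The days thus gave nearly equal differences, as they did for Sox6 on its brightest probeset only. Runx1t1, a corepressor gene, ran the other way, with 7.96, 7.66 and 7.90 in CD11A- and 5.27 and 6.68 in CD11A+ replicates. It differed by -1.87 (standard error 0.42, adjusted p = 1.00 from limma), although 2 of its 5 other probesets had the opposite sign. Tal1 itself differed by -0.57 and Bcl11a, a repressor of fetal globin in humans, by -0.45, where 1 of 6 other probesets had the opposite sign. Tal1 had -0.15 on day A and -0.65 on day B, and Bcl11a had -0.23 and -0.64.

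Signalling downstream of the erythropoietin receptor held 5 of 14 genes without overlap of the groups, beside 18.9% of all genes, 4 with the CD11A+ arrays lowest and 1 with them highest. At an unadjusted p under 0.05, 3 were lower, beside 3.58% of all genes, and 1 higher. The median difference was -0.25, with 6 higher and 8 lower. Socs2, a feedback inhibitor induced by STAT5, had log2 values of 10.86, 10.07 and 10.53 in CD11A- and of 8.71 and 9.36 in CD11A+ replicates. It differed by -1.45 (standard error 0.32, adjusted p = 1.00 from limma), with -1.36 on day A and -1.17 on day B, and all 5 of its other probesets had the same sign. Cish, another such inhibitor, had 10.59, 10.38 and 9.96 in CD11A- and 9.28 and 9.51 in CD11A+ replicates, a difference of -0.92 (standard error 0.24) with -1.10 and -0.45 on the days. For both genes the groups did not overlap. Trib3, a stress-induced pseudokinase gene, had 9.24, 9.05 and 8.72 in CD11A- and 6.07 and 8.07 in CD11A+ replicates, with differences of -2.98 and -0.65 on the days. Its difference of means was -1.93, and -0.93 without CD11A+ replicate 1. Socs3, a further feedback inhibitor, differed by -0.52 with opposite signs on the days (-0.75 and 0.64), and 1 of its 2 other probesets had the opposite sign. Stat5a, named after its values were seen, had the opposite direction, with 8.55, 8.44 and 8.44 in CD11A- and 8.92 and 9.01 in CD11A+ replicates. STAT5, SOCS2 and CISH serve the thrombopoietin receptor of HSCs as well as the erythropoietin receptor, and Epor itself differed by -0.05.

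**Figure D4:**
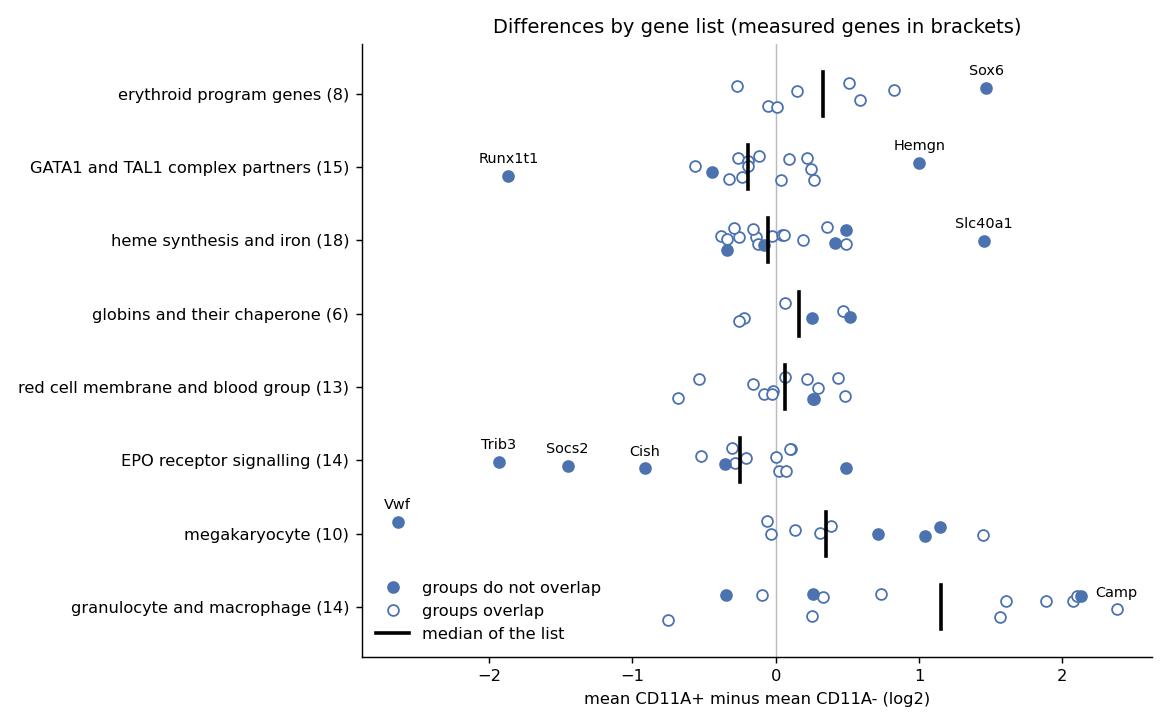
Difference of mean log2 expression, CD11A+ minus CD11A- HSCs, for each measured gene of the erythroid and marker lists (1 point per gene, number of genes in brackets, vertical jitter for sight only). Filled points mark genes whose groups do not overlap, and black bars are list medians. The erythroid program genes have a median of 0.33 and EPO receptor signalling one of -0.25.

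The megakaryocyte list, which shares Gata1, Gfi1b and Zfpm1 as regulators, had a median difference of 0.35, with 7 of 10 higher in CD11A+ HSCs. The median was 0.62 on day A and -0.07 on day B, against 0.02 and -0.03 over all genes. Vwf, the von Willebrand factor gene, ran against it, with log2 values of 10.69, 10.46 and 10.63 in CD11A- and of 7.11 and 8.80 in CD11A+ replicates, a difference of -2.64 (standard error 0.48, adjusted p = 1.00 from limma). Ppbp, a platelet chemokine gene, differed by 1.45, with 2.11 on day A and -0.10 on day B. Itga2b, the CD41 gene, named after its values were seen, had 10.17 in CD11A+ replicate 1 and 8.39 to 8.80 on the other arrays. Itga2b, Pf4 and Gp5, 3 of the 10 genes, were higher on both days (25.3% of all genes), and 2 were lower on both (28%). For the same 3 genes both CD11A+ arrays were the highest, beside 8.56% of all genes.

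The labels of the subfractions were checked by Itgal, whose log2 value was 5.15, 5.43 and 5.27 in CD11A- and 8.49 and 5.67 in CD11A+ replicates. The groups did not overlap, but the within-day difference was 0.40 on day B against 3.06 on day A. CD11A+ replicate 2 was near its array median (5.62), so the check was weak for that array. Slamf1, which encodes CD150 of the HSC gate, differed by -1.05. Procr, the EPCR gene, was lowest in CD11A+ replicate 1 (10.33, against 11.64 to 12.86 on the other arrays). Cd34 (11.07) and Flt3 (9.38) were highest there, while Kit (11.09) lay within the range of the other arrays. Array medians over all probesets were 5.55 to 5.62 after normalization. The labels do not tell if any mice were shared between replicates, so the p-values measure the spread between these arrays only.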

How the data were processed

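RNA of CD11A- and CD11A+ HSCs was measured on Affymetrix arrays (n = 3 and 2). Probeset values on the log2 scale were deposited by the authors, and the submitters' processing notes name RMA. RMA corrects background, normalizes between arrays and summarizes probes, which can make distributions alike and compresses differences of dim genes. Its version is not given in the sources used here. The supplement also describes normalization on the Gene Expression Commons. The 2 deposited tables differed in 0 values for these arrays, and 40 columns of other samples were not used.

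Of 45101 probesets, 64 controls were left out. Probesets with several genes (932) or none (9160) stayed in the fit unnamed. The brightest probeset stood for each gene. The Entrez numbers of 34741 of 34945 single-gene probesets were matched to RefSeq, which changed 0 symbols. Positive differences are higher in CD11A+ HSCs. They were tested in R 4.3.3 by limma 3.58.1 (lmFit, then eBayes, no block), with Benjamini-Hochberg adjustment over 45037 probesets, and the paper names no test for this comparison. Single genes were also given an exact permutation test on the absolute difference of means. The fit was tested on simulated data. Dim means below the median of all values (5.59) or, for a single array, below its own median.

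The members and lists were chosen with earlier results of these data known, so no list was tested. Named are all erythroid program genes, up to 4 genes of each erythroid list and 2 of each other marker list by size of difference, and the nearest 2 profiles of genes spanning over 1 log2 unit. Further genes of the marker lists were named after their values were seen. The lists cover GATA1 and TAL1 partners, heme and iron, globins, red cell membrane, EPO receptor signalling, megakaryocytes, granulocytes and macrophages, and the HSC gate. Of the HSC gate, 6 of 7 genes were measured, with a median difference of 0.49 and 4 higher. List members without a probeset of their own were not analysed here. The labels give sort days, which replicate numbers cross. Alternatives were the other table, a block for sort day or for replicate number, arrays or day A left out, other normalization, array weights, a brightness trend, probesets averaged per gene and a filter on dim ones.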

Additional observations from a re-analysis of the deposited data

Results flagged for a closer look

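The differences of 2 erythroid program genes had opposite signs on the days on which both subfractions were sorted. Gata1 was higher in CD11A+ HSCs by 1.80 log2 units on day A, with the opposite sign on day B (-0.37). Gfi1b was higher by 0.33 on day A and had -0.40 on day B. Each day holds 1 array per subfraction, so the difference between the days was not tested, and 44.2% of all genes had opposite signs on the days. Groups of 3 and 2 arrays are too small for a search for outlying arrays.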

How the results depend on the processing

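No probeset passed the adjusted threshold of limma under the alternatives run, except 20 without CD11A+ replicate 2 (range 0 to 20 over the arrays left out), and 1917 had an unadjusted p under 0.05. Sox6, Car1, Tfrc and Zfpm1 on their brightest probesets, and Hemgn, Slc40a1, Socs2, Cish, Trib3, Runx1t1 and Vwf, kept their direction under every alternative. The lowest adjusted p of Sox6 was 0.382, and Vwf (-3.48) and Mpo (4.20) passed the adjusted threshold without CD11A+ replicate 2.

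With 1 array left out, the median of the erythroid program genes ran from -0.17 to 0.51 and the number higher from 3 to 7 (3 without dim probesets, of 5 left). So ran the differences of Gata1 (-0.17 to 1.81), Klf1 (-0.17 to 1.34), Epor (-0.42 to 0.32), Gfi1b (-0.68 to 0.70), Alad (-0.53 to 1.51), Hba-a2 (-0.0767 to 1.01), Ank1 (-1.44 to 0.08), Icam4 (-0.38 to 1.35), Camp (-0.0767 to 4.83), the dimmer Zfpm1 probeset (-0.11 to 0.43) and the Tfrc probeset 1422966_a_at (-0.12 to 0.33). List medians ran from -0.17 to 0.0733 for GATA1 and TAL1 partners, -0.075 to 0.12 for heme and iron, -0.055 to 0.21 for globins, 0.00167 to 0.98 for megakaryocyte and -0.13 to 2.54 for granulocyte and macrophage genes. The lone array of a group is then assumed to vary like the others.

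Without both arrays of day A, an alternative chosen after seeing the data, the median of the erythroid program genes was -0.04, with 4 higher, and the differences were -0.16 for Gata1, -0.50 for Gfi1b, -0.15 for Alad, -0.40 for Icam4, -0.11 for the dimmer Zfpm1 probeset, -0.14 for that Tfrc probeset and 0.025 for the median of GATA1 and TAL1 partners. Epor had 0.007 after quantile normalization. Gfi1b had -0.035 with sort day as a fixed block, -0.0109 as a random block and -0.00321 with array weights. The heme and iron median was 0.0025 with sort day as a fixed block, and that of the red cell membrane 0.28 without dim probesets, where no globin gene was left. The causes were not tested.

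With the replicate number as a block, no probeset passed either. Gfi1b (-0.13) was the one erythroid program gene whose sign turned on its brightest probeset. Across probesets, deviations from group means had a correlation of 0.12 for arrays sharing replicate number 1, -0.56 for number 2, and 0.56 and 0.59 for those sharing sort days A and B. With 2 CD11A+ arrays, the value for number 2 is that of day A with its sign turned. The numbers were therefore not taken as pairs.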
